A study of Mus musculus with 9 samples.

Results

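The matrix metalloproteinase (Mmp), Adamts and Timp genes were examined in D2.OR, a mammary tumor cell line of the mouse whose spread cells tend to stay dormant. Members were all genes that the array annotation gives as a single symbol of Mmp, Adamts or Timp followed by a number and at most 1 letter. They came to 44 of the 19938 genes measured: 22 Mmp genes, 18 Adamts genes and 4 Timp genes. The Adamtsl genes, which have no protease domain, were not members, and Mmp15 and Adamts2 were not analysed here.

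All 9 arrays held RNA from this 1 cell line in 3D culture: 3 from fibrillar collagen I, 3 from non-fibrillar collagen I and 3 from Matrigel, a basement membrane extract. The Matrigel group rests on the sample titles, since the growth label of those arrays names non-fibrillar collagen I. Those arrays also bear later accession numbers, so a batch that goes with them and the Matrigel group cannot be told apart. The labels do not state whether the arrays of a group stem from separate cultures; the p-values therefore cover the spread among these arrays alone, which may be technical. In bulk RNA, fewer cells that express a gene and less RNA of it per cell cannot be told apart.

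Matrix metalloproteinases are zinc endopeptidases that are made as inactive precursors, either secreted or held in the cell membrane. Between them they cleave most matrix proteins, and a few of them, among them the collagenases and the membrane-type enzyme MMP14, can cut intact fibrillar collagen. ADAMTS proteases are secreted and carry thrombospondin repeats; different members trim procollagen, cleave the proteoglycans versican and aggrecan, or process other matrix and plasma proteins. Tissue inhibitors of metalloproteinases (TIMPs) sit in the active site of these enzymes, and TIMP2 also takes part with the membrane enzyme MMP14 in activating the MMP2 precursor. In the mammary gland these genes are known for roles in branching, involution and tumor invasion.

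Most mouse relatives of the interstitial collagenases and stromelysins lie side by side on chromosome 9. The run holds 10 members with 3 other genes between them. In a window of 250 bases before the annotated start, the letters TGANTCA, which the AP-1 transcription factors (Fos and Jun proteins) are known to bind, occurred in 8 of these 10 genes. The same letters occurred in 7.82% of 27025 genes with a promoter in the RefSeq table (build GRCm38.p6), searched on both strands in windows of the same length. Of the 44 members 30 have a promoter there, and 8 of them (26.7%) held the letters, all in this run. The 8 stretches are shown because the genes share these letters, while Mmp13 alone among them stood clear of the background level described next. By that level the letters occurred in 6 of 12 members near background (50.0%) and 2 of 18 above it (11.1%). Each stretch is 57 bases long, read 5′ to 3′ on the strand of the gene, with the matching letters in capitals.

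Mmp13, chr9:7272454-7272510, plus strand: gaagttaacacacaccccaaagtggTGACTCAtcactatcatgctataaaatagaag
Mmp12, chr9:7347305-7347361, plus strand: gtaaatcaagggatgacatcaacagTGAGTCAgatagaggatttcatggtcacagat
Mmp1b, chr9:7388088-7388144, minus strand: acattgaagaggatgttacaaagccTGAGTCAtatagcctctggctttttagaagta
Mmp3, chr9:7445751-7445807, plus strand: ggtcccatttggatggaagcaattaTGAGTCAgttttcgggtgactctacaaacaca
Mmp1a, chr9:7464043-7464099, plus strand: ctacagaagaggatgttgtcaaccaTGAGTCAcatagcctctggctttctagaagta
Mmp10, chr9:7502254-7502310, plus strand: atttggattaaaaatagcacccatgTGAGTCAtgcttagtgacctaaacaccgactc
Mmp20, chr9:7628111-7628167, plus strand: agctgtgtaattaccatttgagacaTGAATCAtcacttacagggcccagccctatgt
Mmp7, chr9:7692002-7692058, plus strand: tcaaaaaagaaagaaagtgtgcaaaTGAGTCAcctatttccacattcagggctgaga

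Mmp12 and Mmp7 have 2 annotated starts each, and 1 of the 2 windows held the letters. A match describes the sequence only; nothing was measured on binding at these places.

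The values table holds no detection calls, so a background level was taken from the 1027 olfactory receptor (Olfr) genes, which most cells outside the nose do not use. The 95th percentile of their mean levels was 5.24 log2 units. Levels throughout are the authors' log2 RMA values, and because probe sets differ in how well they bind, a level places a gene near or above background and is not an amount to rank genes by. By this mark 15 members were near background and 29 above it. Mmp25, at 5.23, lay just inside, and Mmp24, at 5.39, just outside.

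**Figure D1:**
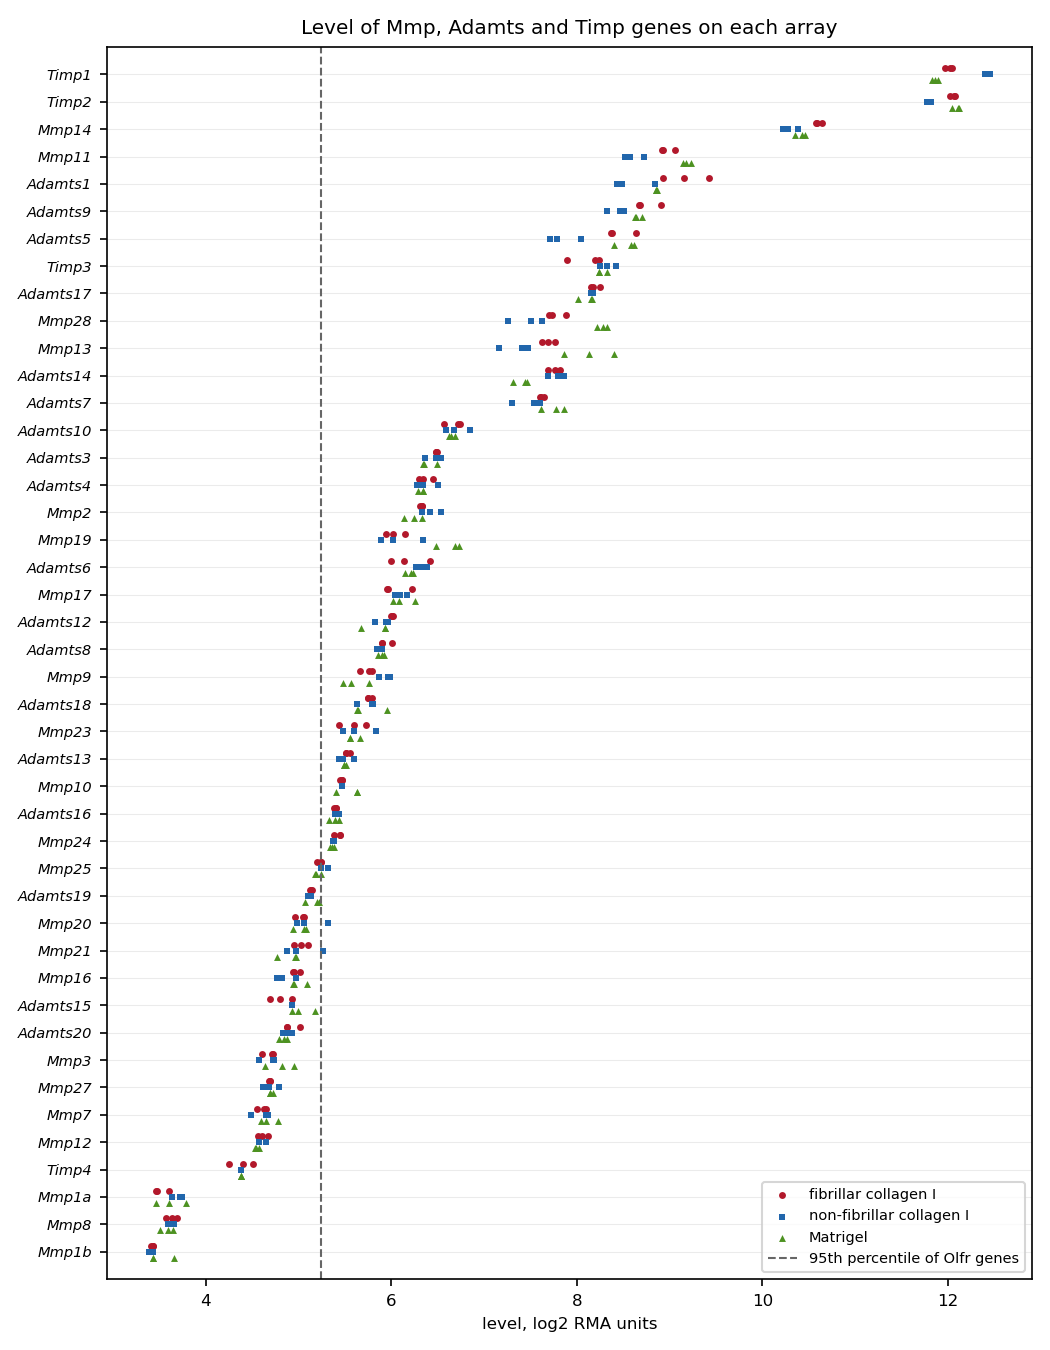
Level of the 44 Mmp, Adamts and Timp genes on each of 9 arrays, in log2 RMA units on the x axis, with a row per gene ordered by its mean. Red circles are fibrillar collagen I, blue squares non-fibrillar collagen I and green triangles Matrigel, and the dashed line is the 95th percentile of olfactory receptor genes (5.24). The 15 genes in the lowest rows have means at or below the line.

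Of the 10 members in the chromosome 9 run, 8 were near background. The collagenase Mmp13, which cuts fibrillar collagen, stood clear of it, at 7.16 to 8.40 on the 9 arrays. Mmp10, a stromelysin that cleaves many matrix proteins and activates other precursors, had a mean of 5.50 and so lay close to the mark. Mmp3, the related stromelysin, was at 4.57 to 4.95, and matrilysin, Mmp7, at 4.49 to 4.79. The macrophage elastase Mmp12 averaged 4.59, the enamel protease Mmp20 averaged 5.06, and Mmp27 averaged 4.70. Also near background were Mmp1a (3.61), Mmp1b (3.45) and the neutrophil collagenase Mmp8 (3.61). Mmp1a and Mmp1b are near copies, so single values of these 2 genes are uncertain. Thus Mmp13 was the only secreted collagenase of the 4 listed members of that class with a level above the mark.

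The other members near background were Mmp16 (4.94), a membrane-type enzyme, Mmp21 (4.99), Mmp25, Timp4 (4.39) and the ADAMTS proteases Adamts15 (4.93), Adamts19 (5.14) and Adamts20 (4.88). Timp4 read 4.384 on 5 of the 9 arrays, an identical value. All 15 members near background failed to pass in each of the 3 comparisons below. Above the mark, the 14 members not named in the comparisons had means from 5.39 to 8.15, the lowest of them close to it.

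The groups were compared with limma on all 19938 genes, with Benjamini-Hochberg adjustment and a threshold of 0.05. Differences are in log2 units with limma's standard error (SE) and n = 3 arrays per group. In all, 10 of the 44 members passed in at least 1 comparison. They were Timp1, Timp2, Mmp9, Mmp11, Mmp13, Mmp14, Mmp19, Mmp28, Adamts5 and Adamts14. The share of all genes that passed in at least 1 comparison was not counted, so this total cannot be set against it. Shares of all genes are given for each comparison below.

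The form of collagen I was the first comparison, the one that the series design names. In fibrillar collagen the inhibitor gene Timp1 fell, and Timp2, Mmp14, Mmp11 and Adamts5 rose, relative to non-fibrillar collagen. That makes 4 members higher and 1 lower of 44, or 11.4%, where 6.4% of all genes passed (2.71% higher and 3.69% lower). The median difference over the 44 members was 0.010, and over all genes it was 0.0080. The groups did not overlap for 15 members, 34.1%, against 25.2% of all genes.

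Timp1, an inhibitor of most MMPs, read 11.97, 12.05 and 12.02 in fibrillar collagen, against 12.40, 12.44 and 12.45 in non-fibrillar collagen. The difference was -0.42 ± 0.038 SE, or 1.34-fold lower (adjusted p = 0.0055). Timp2, the inhibitor that works with MMP14, read 12.02, 12.06 and 12.07 in fibrillar collagen, against 11.77, 11.82 and 11.77 in non-fibrillar collagen. Every fibrillar array was thus below every non-fibrillar array for Timp1 and above every one for Timp2. The rise in Timp2 was 0.26 ± 0.035, or 1.20-fold (adjusted p = 0.014).

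The stretches of 100 bases before the starts of these inhibitor genes are shown because the pair moved in opposite directions. Both held the letters GGGCGG, which SP1-type factors are known to bind, once in the 250 bases before the start; they are in capitals, and in Timp1 they lie on the other strand. These letters occurred in 35.4% of all genes with a promoter in the table and in 14 of the 30 members (46.7%), and cannot overlap TGANTCA. The run TGANTCA occurred in neither window.

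Timp1, chrX:20870066-20870165, plus strand: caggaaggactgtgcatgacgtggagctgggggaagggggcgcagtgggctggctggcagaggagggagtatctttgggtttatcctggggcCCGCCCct
Timp2, chr11:118355412-118355511, minus strand: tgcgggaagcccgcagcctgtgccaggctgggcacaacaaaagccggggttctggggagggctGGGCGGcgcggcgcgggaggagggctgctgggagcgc

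Timp3, the inhibitor that binds to the matrix and also blocks ADAM17 and aggrecanases, read 7.90, 8.19 and 8.24 in fibrillar collagen, against 8.24, 8.42 and 8.33 in non-fibrillar collagen. Its groups did not overlap, but the difference of -0.22 ± 0.096 did not pass (adjusted p = 0.248). Without fibrillar replicate 1, the lowest array, the Timp3 difference was -0.12 between the collagens. Timp4 was at 0.011 ± 0.066. By the gene table, Timp1, Timp3 and Timp4 lie within the spans of the synapsin genes Syn1, Syn3 and Syn2, in that order.

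Mmp14, the membrane-type protease that cuts fibrillar collagen at the cell surface, read 10.58, 10.59 and 10.64 in fibrillar collagen, against 10.28, 10.23 and 10.38 in non-fibrillar collagen. It was 0.31 ± 0.050 higher, 1.24-fold (adjusted p = 0.022). The furin-activated Mmp11, stromelysin-3, read 8.92, 8.92 and 9.06 in fibrillar collagen, against 8.52, 8.57 and 8.72 in non-fibrillar collagen. That was a rise of 0.37 ± 0.067, 1.29-fold (adjusted p = 0.030). For both proteases each fibrillar array lay above all 3 non-fibrillar arrays.

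The largest difference among the members was in Adamts5, an aggrecanase that also cleaves versican. Its values were 8.37, 8.38 and 8.63 in fibrillar collagen, against 7.78, 7.71 and 8.04 in non-fibrillar collagen. The gene was 0.62 ± 0.108 higher, 1.53-fold (adjusted p = 0.027). Of 7 members in the class of aggrecanases and versican-cleaving enzymes, it alone passed.

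Its neighbour Adamts1, a versican-cleaving enzyme separated from Adamts5 by 1 other gene on chromosome 16, was singled out after its values were seen. Adamts1 read 9.42, 8.93 and 9.15 in fibrillar collagen, against 8.84, 8.43 and 8.49 in non-fibrillar collagen. The difference of 0.58 ± 0.153 did not pass (adjusted p = 0.081). Same-numbered collagen arrays deviated together over all genes, as given under the processing of the data, and within the numbered pairs Adamts1 differed by 0.57, 0.49 and 0.66. With replicate number as a block its adjusted p was 0.019. That result was also known when Adamts1 was singled out, so neither the block nor the pairs add support for it. Adamts9, another enzyme of that class, was at 0.32 ± 0.081 (adjusted p = 0.073, and 0.041 with the block). All 6 probe sets of Adamts9 were higher in fibrillar collagen, by 0.083 to 0.32, and the mean of the 6 gave a difference of 0.17 (adjusted p = 0.076).

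The other secreted MMPs did not pass in this comparison. Mmp13 read 7.76, 7.63 and 7.69 in fibrillar collagen, against 7.41, 7.47 and 7.16 in non-fibrillar collagen. Its difference was 0.35 ± 0.086 (adjusted p = 0.067), with no overlap of the groups. The gelatinases, which degrade denatured collagen and type IV collagen, had values on the other side: Mmp9 was at -0.20 ± 0.052 (adjusted p = 0.076) and Mmp2 at -0.11 ± 0.056 (adjusted p = 0.335). Mmp28, a furin-activated protease known from epithelia, was at 0.31 ± 0.101 (adjusted p = 0.145). Adamts7, which cleaves the cartilage protein COMP, was at 0.14 ± 0.077, Mmp19 at -0.042 ± 0.118 and the procollagen-trimming Adamts14 at -0.028 ± 0.057.

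Many calls in this comparison were lost when 1 array was left out, over all genes as well as the members. Each refit has fewer arrays and so less power, so a lost call does not mean that the array left out drove it. Of all genes 1277 passed with the 6 arrays, and 150 to 569 when 1 array was left out. The call for Timp1 held whichever of the 6 arrays was left out, with adjusted p up to 0.047. Timp2 lost its call without fibrillar replicate 2 or 3 or non-fibrillar replicate 1 or 2 (adjusted p up to 0.060). Mmp14, Mmp11 and Adamts5 kept theirs only without non-fibrillar replicate 3; in the other refits adjusted p reached 0.089, 0.119 and 0.106. Timp1 was lower, and the other 4 higher, in each of the 3 same-numbered pairs. Since the groups of these genes did not overlap, any pairing would give those signs, so this adds no support. Over all alternative fits the differences ran from -0.44 to -0.37 for Timp1 and from 0.24 to 0.32 for Timp2. They ran from 0.27 to 0.35 for Mmp14, 0.32 to 0.42 for Mmp11 and 0.53 to 0.72 for Adamts5.

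**Figure D2:**
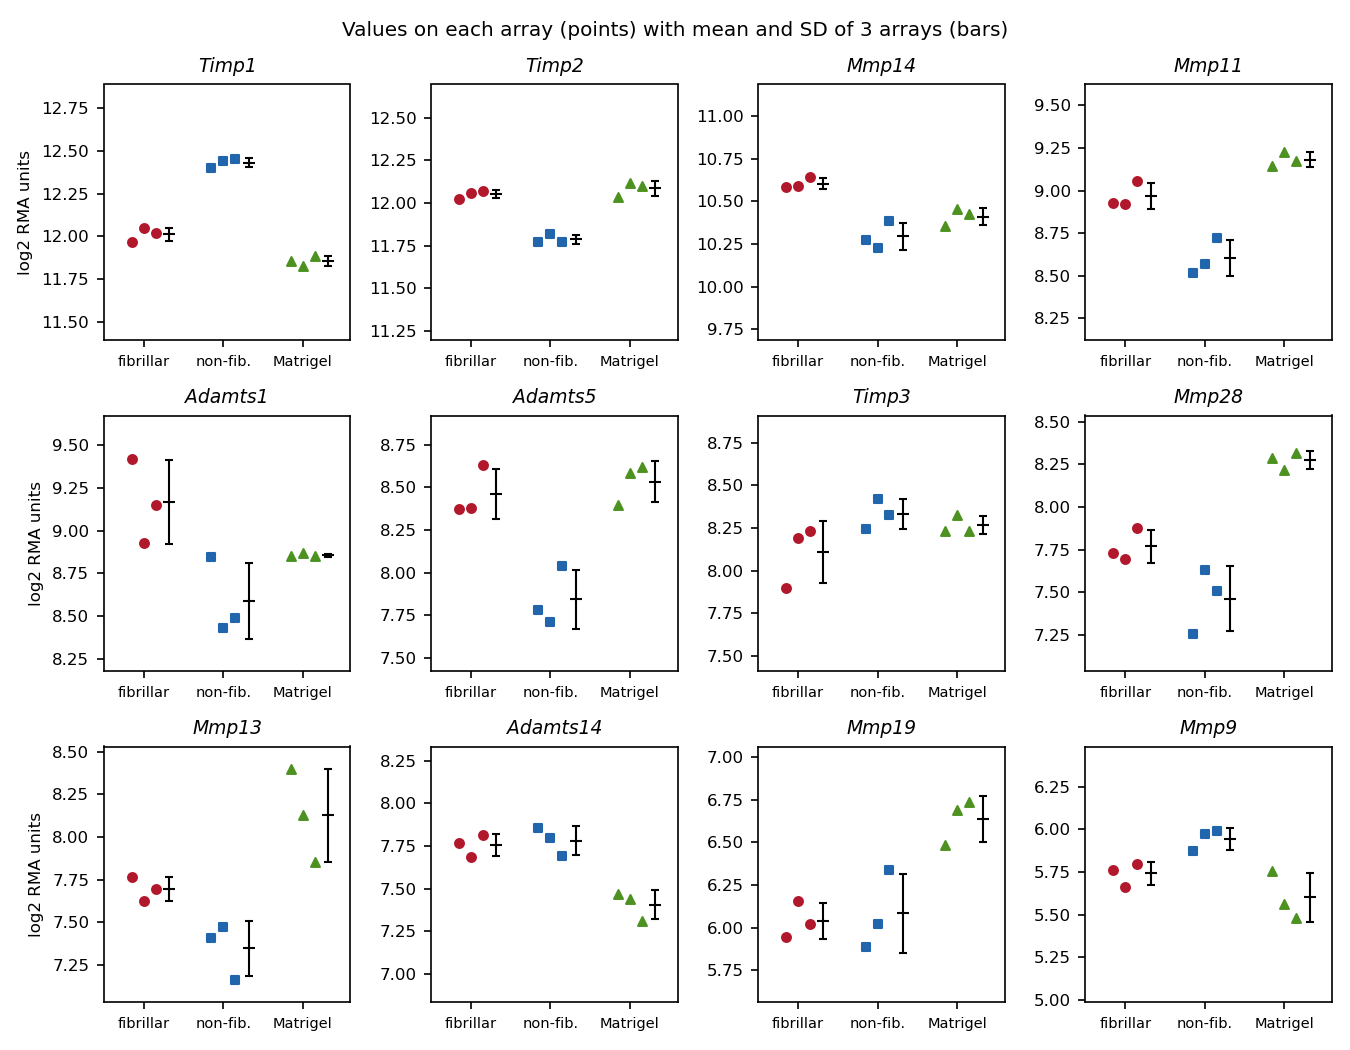
Log2 RMA values on each array for the 10 members that passed in at least 1 comparison, with Timp3 and Adamts1 added; each panel spans 1.5 log2 units on its y axis. Points are arrays (replicates 1 to 3 from left to right), grouped from left to right as fibrillar collagen, then non-fibrillar collagen, then Matrigel, and bars are the mean and SD of 3 arrays. Timp1 was highest and Timp2, Mmp11 and Adamts5 lowest in non-fibrillar collagen.

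The second comparison set fibrillar collagen against Matrigel. Adamts14, a protease that removes the N-terminal propeptide of procollagen, rose in fibrillar collagen, and Mmp28 and Mmp19 fell. These 3 of 44 members are 6.82%, against 3.82% of all genes (1.45% higher and 2.37% lower). The median over the members was 0.011 and that over all genes 0.0028, and groups did not overlap for 9 members (20.5%, against 20.4% of all genes).

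Adamts14 read 7.77, 7.68 and 7.81 in fibrillar collagen, against 7.47, 7.44 and 7.31 in Matrigel. The difference was 0.35 ± 0.061, 1.27-fold (adjusted p = 0.014). Mmp28 read 7.73, 7.70 and 7.88 in fibrillar collagen, against 8.29, 8.22 and 8.32 in Matrigel, a fall of 1.42-fold (-0.50 ± 0.089, adjusted p = 0.015). Every array in fibrillar collagen was above every Matrigel array for Adamts14 and below every one for Mmp28. Mmp19, which cleaves basement membrane proteins, read 5.95, 6.15 and 6.02 in fibrillar collagen, against 6.49, 6.69 and 6.74 in Matrigel. It was 1.51-fold lower (-0.60 ± 0.112, adjusted p = 0.0195), again with no overlap.

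Timp1, Mmp14, Mmp11 and Mmp13 also had groups that did not overlap here but did not pass. Timp1 was at 0.15 ± 0.040 (adjusted p = 0.068), Mmp14 at 0.19 ± 0.050 (adjusted p = 0.070), Mmp11 at -0.21 ± 0.061 (adjusted p = 0.094) and Mmp13 at -0.43 ± 0.125 (adjusted p = 0.095). For Timp2 the difference was -0.034 ± 0.040, with an interval of -0.12 to 0.055, and for Adamts5 it was -0.071 ± 0.102, with an interval of -0.30 to 0.16 (95% confidence). Adamts1 was at 0.31 ± 0.128 and Timp3 at -0.16 ± 0.085, with adjusted p of 0.243 and 0.370. Adamts14 lost its call without fibrillar replicate 1 or 3 (adjusted p up to 0.055). Mmp28 lost it without fibrillar replicate 1 or 2 or Matrigel replicate 1 or 3 (up to 0.061), and Mmp19 without fibrillar replicate 1 or 3 or Matrigel replicate 2 or 3 (up to 0.079). Among these refits Mmp13 gained a call without Matrigel replicate 3.

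The third comparison, non-fibrillar collagen against Matrigel, held the most calls. Timp1, Adamts14 and the gelatinase Mmp9 rose in non-fibrillar collagen, and Mmp28, Mmp13, Mmp11, Mmp19, Adamts5 and Timp2 fell. These 9 of 44 members are 20.5%, against 13.8% of all genes (6.75% higher and 7.07% lower). The median over the members was 0.0033 and that over all genes 6.1e-04. Groups did not overlap for 14 members (31.8%, against 28.4% of all genes).

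Timp1 values, 12.40 to 12.45 in non-fibrillar collagen, set against 11.86, 11.83 and 11.89 in Matrigel, gave a rise of 0.57 ± 0.040, or 1.49-fold (adjusted p = 2.5e-05). Timp2 read 11.77, 11.82 and 11.77 in non-fibrillar collagen, below all 3 Matrigel arrays at 12.04, 12.12 and 12.10, and fell (-0.30 ± 0.040, 1.23-fold, adjusted p = 0.0011). So in non-fibrillar collagen these inhibitors differed in direction. Timp3 was at 0.064 ± 0.085 and Timp4 at -0.0023 ± 0.059.

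Among the proteases, Mmp28 had the largest fall, at 7.25, 7.63 and 7.51 in non-fibrillar collagen, against the Matrigel values given above (-0.81 ± 0.089, 1.75-fold, adjusted p = 3.7e-04). Mmp13 read 7.41, 7.47 and 7.16 in non-fibrillar collagen, against 8.40, 8.13 and 7.86 in Matrigel, and was 1.72-fold lower with no overlap (-0.78 ± 0.125, adjusted p = 0.0029). Of the members in the chromosome 9 run whose promoter stretches are shown above, it was the one that passed. Mmp11 read 8.52, 8.57 and 8.72 in non-fibrillar collagen, against 9.14, 9.23 and 9.17 in Matrigel, and was 1.49-fold lower (-0.58 ± 0.061, adjusted p = 3.1e-04). Adamts5 read 7.78, 7.71 and 8.04 in non-fibrillar collagen, against 8.40, 8.58 and 8.62 in Matrigel, and was 1.61-fold lower (-0.69 ± 0.102, adjusted p = 0.0019).

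Mmp19 read 5.89, 6.02 and 6.34 in non-fibrillar collagen, below all 3 Matrigel arrays (-0.55 ± 0.112, 1.47-fold, adjusted p = 0.0093). Mmp9 stood at 5.87, 5.97 and 5.99 in non-fibrillar collagen, against 5.76, 5.56 and 5.48 in Matrigel. Its rise was 0.34 ± 0.072, 1.27-fold (adjusted p = 0.011). The level of Mmp9 was low, with a mean of 5.76 over the 9 arrays, below the 99th percentile of olfactory receptor genes (6.07). Adamts14 read 7.86, 7.80 and 7.69 in non-fibrillar collagen and was 0.38 ± 0.061 higher than in Matrigel, 1.30-fold (adjusted p = 0.0031). Mmp14, at -0.12 ± 0.050, did not pass (adjusted p = 0.185), and its groups overlapped. Adamts7 was at -0.27 ± 0.082 (adjusted p = 0.056, and called without non-fibrillar replicate 3 or Matrigel replicate 2), Mmp2 at 0.19 ± 0.063 (adjusted p = 0.079) and Adamts1 at -0.27 ± 0.128 (adjusted p = 0.230). Adamts9 was at -0.22 ± 0.072 (adjusted p = 0.075) by the probe set used, while the other 5 ran from -0.14 to 0.031 and the mean of the 6 gave -0.087 (adjusted p = 0.339). The 9 calls held whichever single array of either group was left out, with adjusted p up to 0.0499 for Mmp9.

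**Figure D3:**
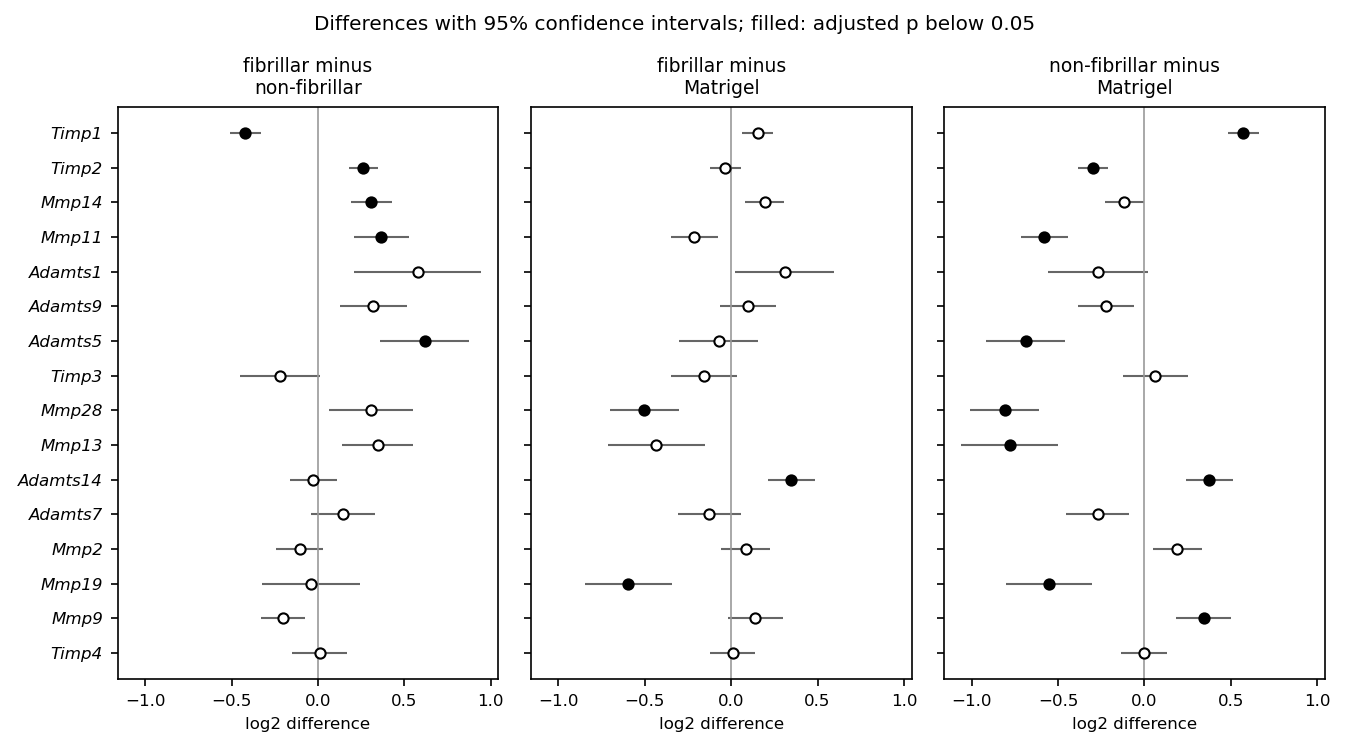
Log2 differences (x axis) of 16 named members in each comparison, with 95% confidence intervals from limma; filled points have an adjusted p below 0.05. In the first panel 5 points are filled, in the second 3 and in the third 9. The panels share arrays and are not independent of each other.

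Timp1, Timp2, Mmp11 and Adamts5 passed in both comparisons that hold the non-fibrillar arrays. Since these comparisons share those 3 arrays, this is not independent support. Timp1 averaged 12.01 ± 0.041 in fibrillar collagen, 12.43 ± 0.026 in non-fibrillar collagen and 11.86 ± 0.029 in Matrigel (SD, n = 3 each). Timp2 averaged 12.05 ± 0.025 in fibrillar collagen, 11.79 ± 0.027 in non-fibrillar collagen and 12.09 ± 0.042 in Matrigel, and the fibrillar and Matrigel groups did not differ beyond their spread. Mmp13 averaged 7.69 ± 0.069 in fibrillar collagen, 7.35 ± 0.163 in non-fibrillar collagen and 8.13 ± 0.271 in Matrigel. Mmp28 averaged 7.77 ± 0.096 in fibrillar collagen, 7.46 ± 0.192 in non-fibrillar collagen and 8.27 ± 0.053 in Matrigel. Both ran from Matrigel at the top to non-fibrillar collagen at the bottom, and for neither did fibrillar and non-fibrillar collagen differ at the threshold. Mmp13 passed between the collagens under 4 alternatives, namely quantile normalization applied again (adjusted p = 0.040), tests of only the genes above the median level (0.022) or above the olfactory receptor level (0.037), and a trended robust prior (0.049). Adamts14, at 7.75 ± 0.065 in fibrillar collagen and 7.78 ± 0.083 in non-fibrillar collagen, was higher in both than in Matrigel, at 7.41 ± 0.085. Mmp19, at 6.04 ± 0.105 in fibrillar collagen and 6.08 ± 0.231 in non-fibrillar collagen, was lower in both than in Matrigel, at 6.64 ± 0.132.

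The remaining 28 members passed nowhere; their differences ran from -0.19 to 0.11 in the first comparison, -0.23 to 0.16 in the second and -0.14 to 0.14 in the third, with a smallest adjusted p of 0.108. They include the fibrillin-binding Adamts10, the von Willebrand factor protease Adamts13, the procollagen protease Adamts3 and the aggrecanase Adamts4. Adamts3 has 16 probe sets, of which 6 lay above background, and Adamts17 has 5, of which 2 did. For such genes the probe set with the highest mean was used.

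Genes that act with these proteases were followed as 6 lists, 92 measured genes of 98 listed; the others were not analysed here. In fibrillar against non-fibrillar collagen 9 of the 92 were higher and 2 lower (12.0%, against 6.4% of all genes), with a median of 0.015. With replicate number as a block 5 were higher and 2 lower, and after each array was centred on its median 4 were higher and 3 lower. Against Matrigel 8 were higher and 3 lower in fibrillar collagen (12.0%, against 3.82%), with a median of 0.021, and 10 were higher and 11 lower in non-fibrillar collagen (22.8%, against 13.8%), with a median of -0.0023.

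Among 23 genes of activation and cell-surface control, Lrp1, the endocytic receptor that clears MMPs, ADAMTS proteases and TIMPs from the cell surface, had the smallest p between the collagens. Lrp1 read 11.90, 11.91 and 11.89 in fibrillar collagen, against 11.48, 11.48 and 11.44 in non-fibrillar collagen. It was 0.43 ± 0.033 higher, 1.35-fold (adjusted p = 0.0046), and kept its call whichever array was left out. The other 2 calls in that list were falls in the syndecan Sdc1 (-0.24 ± 0.039, adjusted p = 0.022) and the tetraspanin Cd151 (-0.22 ± 0.045, adjusted p = 0.041, and 0.051 with the block). Sdc1 kept its call only without fibrillar replicate 1 (adjusted p up to 0.084 in the other refits), and Cd151 lost it without any single array (up to 0.120). The 3 calls between the collagens are 13.0% of this list, against 6.4% of all genes. The same list had 2 higher and 1 lower in fibrillar collagen against Matrigel (13.0%, against 3.82% of all genes). In non-fibrillar collagen against Matrigel it had 5 higher and 2 lower (30.4%, against 13.8% of all genes). Urokinase, Plau, which starts the plasmin cascade that can activate MMP precursors, read 8.94, 8.58 and 8.59 in fibrillar collagen and 9.22, 9.05 and 8.95 in non-fibrillar collagen, against 7.92, 7.79 and 7.84 in Matrigel. It was 0.86 ± 0.101 higher in fibrillar collagen than in Matrigel (adjusted p = 0.0021) and 1.22 ± 0.101 higher in non-fibrillar collagen (adjusted p = 7.5e-05). Its receptor Plaur was higher by 0.53 ± 0.069 and 0.50 ± 0.069 in the same comparisons, and Sdc1 was lower in fibrillar collagen than in Matrigel (-0.41 ± 0.041). Caveolin, Cav1, was 0.22 ± 0.045 higher in non-fibrillar collagen than in Matrigel, a call lost after quantile normalization was applied again (adjusted p = 0.053).

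Of 13 genes for ADAM proteases, which shed proteins from the cell surface, and their regulators, 1 passed between the collagens, Adam9. That is 7.69%, close to the 6.4% of all genes. Adam9 was 0.22 ± 0.033 higher in fibrillar collagen and lost its call whichever array was left out (adjusted p up to 0.066). None of the 13 passed in fibrillar collagen against Matrigel by limma, though 3 had an unadjusted p under the threshold. In non-fibrillar collagen against Matrigel 30.8% passed, against 13.8% of all genes. There 1 was higher, Adam8 (0.20 ± 0.046), and 3 were lower, among them Adam10 (-0.22 ± 0.045) and Adam9 (-0.16 ± 0.037). Adam8 lost its call without non-fibrillar replicate 1 or 3 or Matrigel replicate 2 or 3 (adjusted p up to 0.070), and Adam9 without replicate 3 of either group (up to 0.057).

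The ADAMTS-like list had 11 genes, of which 3 were higher in fibrillar than in non-fibrillar collagen (27.3%, against 6.4% of all genes). They were Adamtsl4, which binds fibrillin microfibrils (0.37 ± 0.057, adjusted p = 0.019), Adamtsl5 (0.26 ± 0.051) and papilin, Papln (0.18 ± 0.035, adjusted p = 0.033, and 0.061 with the block). Adamtsl4 and Adamtsl5 were also lower in non-fibrillar collagen than in Matrigel, with differences of -0.44 ± 0.063 and -0.34 ± 0.059. Papln was higher than in Matrigel in both collagens, by 0.51 ± 0.048 in fibrillar and 0.33 ± 0.048 in non-fibrillar collagen. Without single arrays the collagen calls for Papln and Adamtsl5 were lost each time (adjusted p up to 0.104 and 0.125), and that for Adamtsl4 in 5 of 6 refits (up to 0.076).

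Of 14 genes for collagen uptake and other collagen proteases, 2 passed between the collagens (14.3%, against 6.4% of all genes). The procollagen C-proteinase Bmp1 (0.17 ± 0.032) and cathepsin B, Ctsb (0.17 ± 0.036), were higher in fibrillar than in non-fibrillar collagen. With the block their adjusted p was 0.065 and 0.074, and both lost the call without any single array (up to 0.092 and 0.121). In non-fibrillar collagen against Matrigel both were lower, with differences of -0.14 ± 0.036 and -0.28 ± 0.041; Bmp1 kept that call only without Matrigel replicate 1 among the refits that leave out an array (adjusted p up to 0.083). The 2 calls in non-fibrillar collagen against Matrigel are 14.3% of the list, close to the 13.8% of all genes. None of the 14 passed in fibrillar collagen against Matrigel, where 2 had an unadjusted p under the threshold. The 13 genes of the substrate list had no call between the collagens (limma, 1 at the unadjusted threshold). Has2, which makes the hyaluronan that versican and aggrecan bind, was higher than in Matrigel in fibrillar (0.28 ± 0.064) and non-fibrillar collagen (0.47 ± 0.064), and thrombospondin Thbs1 was higher in fibrillar collagen (0.32 ± 0.070). The fibrillar calls for Has2 and Thbs1 were lost in 5 of 6 refits without an array (adjusted p up to 0.148 and 0.105).

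Among 18 transcription factors known for control of Mmp genes, Fosl1, a Fos-family member of AP-1, read 9.78, 9.71 and 9.72 in fibrillar collagen, against 9.48, 9.52 and 9.48 in non-fibrillar collagen and 9.42, 9.54 and 9.49 in Matrigel. It was higher in fibrillar collagen than in either other group (0.25 ± 0.037 and 0.26 ± 0.044, adjusted p = 0.018 and 0.013). The first of these calls was lost without any array but fibrillar replicate 1 (adjusted p up to 0.066). Snai2, a regulator of epithelial-mesenchymal transition, was 0.25 ± 0.053 higher in fibrillar than in non-fibrillar collagen (adjusted p = 0.047, and 0.058 with the block; lost without any single array, up to 0.129), and lower in non-fibrillar collagen than in Matrigel (-0.49 ± 0.051, adjusted p = 2.8e-04). Etv5 and Etv4, which bind ETS sites, were higher in fibrillar collagen than in Matrigel (0.45 ± 0.044 and 0.23 ± 0.047), the call for Etv4 being lost in 5 of 6 refits (up to 0.096). In non-fibrillar collagen against Matrigel, Etv5 (0.40 ± 0.044) and Etv4 (0.20 ± 0.047, adjusted p = 0.018) were higher and Fosl2 lower (-0.44 ± 0.063). Snai2 (-0.24 ± 0.051, adjusted p = 0.030) and Fosl2 (-0.29 ± 0.063, adjusted p = 0.032) were also lower in fibrillar collagen than in Matrigel. The list had 2, 5 and 4 calls of 18 in the 3 comparisons (11.1%, 27.8% and 22.2%, against 6.4%, 3.82% and 13.8% of all genes).

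**Figure D4:**
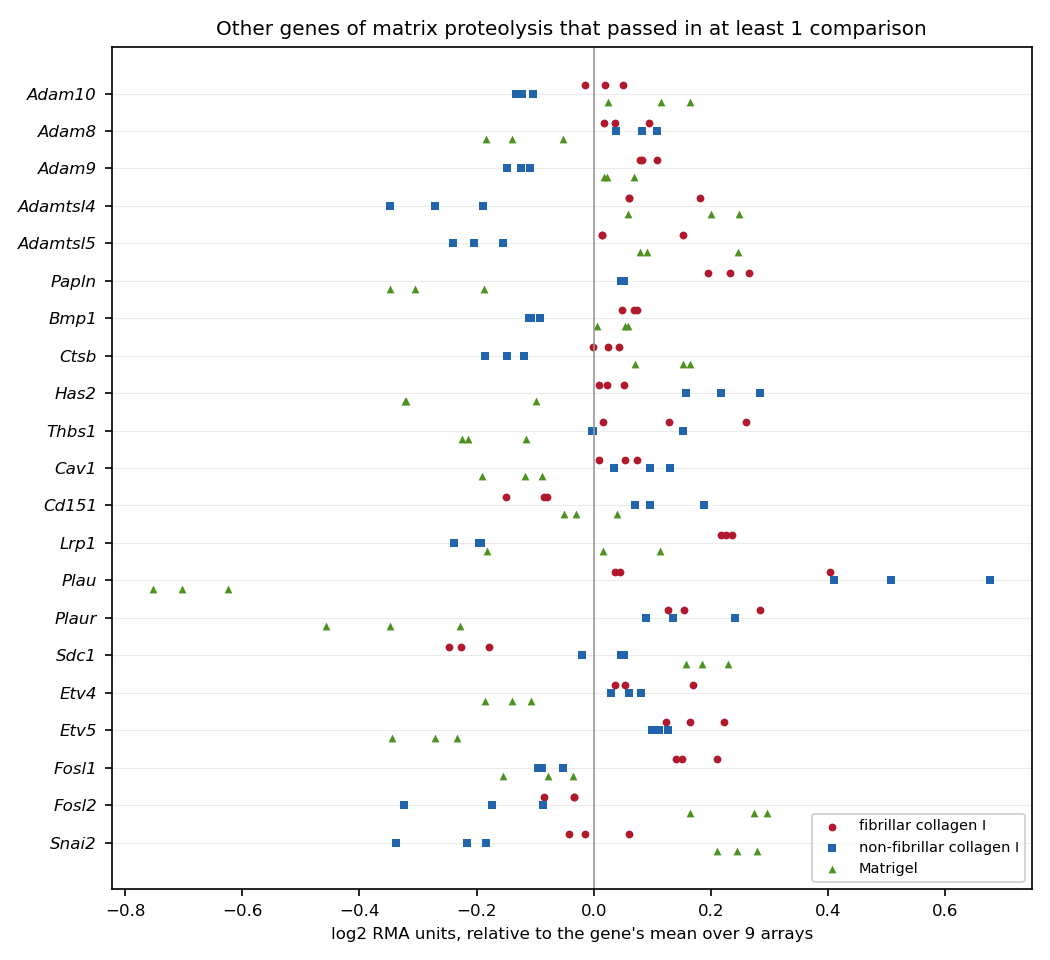
Values of 21 other genes of matrix proteolysis on each array, in log2 RMA units relative to the mean of each gene over 9 arrays (x axis); these are the up to 3 genes with the smallest p of each list and comparison that passed. Red circles are fibrillar collagen I, blue squares non-fibrillar collagen I and green triangles Matrigel. The 3 fibrillar values of Lrp1 lie above all others, and those of Plau in Matrigel lie below all others.

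Simple epithelial keratins had high values (Krt8 13.2 and Krt18 12.8), and the adhesion gene Cdh1 was at 9.06, while Epcam was at 6.08. Vimentin, a mesenchymal marker, was at 13.3, so the cells carried both kinds of marker. Of the luminal and simple epithelial markers all 8 were above background, and of the basal and mesenchymal markers 5 of 6. Of these, Krt19 (5.37), Cldn4 (5.84), Krt5 (5.74), Trp63 (5.78) and Acta2 (6.02) lay below 6.07, the 99th percentile of the olfactory receptor genes.

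Markers of other cell types were mixed. Above background were 5 of 7 fibroblast markers, with Dcn and Lum near it, and 3 of 7 macrophage markers, with Csf1r, Adgre1, Lyz2 and Fcer1g near it. The same held for 3 of 6 neutrophil markers (S100a8, S100a9 and Elane, with Mpo, Csf3r and Ly6g near background) and for 4 of 6 endothelial markers (Kdr, Vwf, Tie1 and Cdh5, with Pecam1 and Tek near background). Of 5 lymphocyte markers 2 were above background (Cd3e and Cd8a), as were 3 of 5 adipocyte markers (Plin1, Fabp4 and Cidec, with Adipoq and Lep near it). Many of the markers counted as above background lay below 6.07 too, and so close to the mark. They were Cd3e (5.61), Cd8a (5.59), S100a8 (5.36), S100a9 (5.62), Elane (5.52), Cdh5 (5.49) and Tie1 (5.55). Others were Kdr (6.01), Tyrobp (5.60), Thy1 (5.60), Fabp4 (5.71) and Cidec (5.97).

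Some of these markers moved with the groups. Between the collagens, Pdgfra (0.67) and Cd68 (0.83) were higher in fibrillar collagen, and Krt7 (-0.30) and the macrophage marker Cd14 (-0.37, adjusted p = 0.047) were lower. In fibrillar collagen against Matrigel, Krt7 (0.90) and Krt18 (0.23) were higher, and Cd68 (-0.55), Krt14 (-0.17) and Fabp4 (-0.81) were lower. In non-fibrillar collagen against Matrigel, Krt7 (1.20), Krt18 (0.28), Epcam (0.28), Cldn7 (0.18) and Cd14 (0.28) were higher, and Pdgfra (-1.01), Cd68 (-1.38), Krt14 (-0.30), Kdr (-0.47) and Fabp4 (-1.02) were lower. No marker of the neutrophil or lymphocyte lists passed by limma, where none had an unadjusted p under the threshold between the collagens and 1 neutrophil marker had one in each comparison with Matrigel.

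The mean over the luminal list was 8.73 to 8.76 in fibrillar collagen, 8.77 to 8.79 in non-fibrillar collagen and 8.50 to 8.55 in Matrigel. The basal and mesenchymal list averaged 7.88 to 7.89 in fibrillar collagen, 7.82 to 7.88 in non-fibrillar collagen and 7.89 to 7.96 in Matrigel. The fibroblast list averaged 6.44 to 6.52 in fibrillar collagen, 6.34 to 6.42 in non-fibrillar collagen and 6.47 to 6.58 in Matrigel. For the macrophage list the means were 5.64 to 5.72 in fibrillar collagen, 5.58 to 5.62 in non-fibrillar collagen and 5.74 to 5.82 in Matrigel, and for the neutrophil list 4.98 to 5.16, 5.02 to 5.09 and 5.03 to 5.18 in the same order. The endothelial list averaged 5.53 to 5.55 in fibrillar collagen, 5.41 to 5.50 in non-fibrillar collagen and 5.50 to 5.55 in Matrigel. The adipocyte list averaged 5.21 to 5.34 in fibrillar collagen, 5.16 to 5.24 in non-fibrillar collagen and 5.39 to 5.47 in Matrigel, and the lymphocyte list 4.77 to 4.82, 4.75 to 4.81 and 4.71 to 4.79 in that order. The part of these markers in the Mmp, Adamts and Timp results was not tested.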

How the data were processed

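RNA of D2.OR cells was measured on 9 Affymetrix arrays, 3 per group. The authors deposited RMA values on a log2 scale, 1 per probe set; the submitters' processing notes name RMA and Affymetrix Power Tools, without versions. Whether the Matrigel arrays were normalized together with the others is not stated. RMA gives arrays that are normalized together a common distribution of probe values. Among such arrays a shift of most genes at once would not show. The medians of the deposited columns ran from 5.98 to 6.05. Depth does not apply to arrays; their number limits precision.

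Of 35512 probe sets, 21789 had a single symbol, and the probe set with the highest mean stood for each of 19938 genes; all 44 members matched a current gene ID. limma 3.58.1 (R 4.3.3) was fitted on the 6 collagen arrays for the first comparison and on all 9 for the others. The code was tested on simulated data. Deviations of same-numbered arrays correlated at 0.221, 0.143 and 0.242 between the collagens, all above 0.1, so the numbers may pair these arrays, although no label states a pairing. Against Matrigel 1 pair or more fell short. The main fits treated all arrays as unpaired, and replicate number as a block was an alternative only.

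Named members were those that passed anywhere, all Timp genes and the 3 next by p per comparison; other genes were the 3 smallest p per list that passed. In the list of transcription factors the remaining calls against Matrigel are named as well, without refits that leave out an array. Members and lists were chosen with earlier results of these data known.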

Additional observations from a re-analysis of the deposited data

How the results depend on the processing

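Of the members, 5 passed in fibrillar against non-fibrillar collagen, and the count was 8 when only genes above the median level were tested, 9 with only genes above the olfactory receptor level (fewer genes tested in both), 1 at a threshold of 0.01, and 1 to 5 when single arrays were left out. With the replicate block it was 7. In fibrillar collagen against Matrigel 3 passed, and the count was 6 with genes above the median level, 5 with genes above the olfactory receptor level, 5 with a trended robust prior, 0 at a threshold of 0.01 and 0 to 2 without single arrays. Over all genes 762 passed there, and 353 to 513 without single arrays. In non-fibrillar collagen against Matrigel 8 of the 9 calls held at a threshold of 0.01, the exception being Mmp9 (adjusted p = 0.011). At 0.05 all 9 held under the other alternatives in which the gene was tested; Mmp9 and Mmp19 lie outside the genes above the median level. The count was 9 to 11 without single arrays. Over all genes 2755 passed in that comparison, and 1814 to 2492 without single arrays.

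Of the companion genes, 11 passed between the collagens, against 7 with the replicate block, 7 after centring on array medians, 1 at a threshold of 0.01 and 1 to 3 without single arrays. In fibrillar collagen against Matrigel 11 passed, against 5 at 0.01 and 6 to 8 without single arrays. In non-fibrillar collagen against Matrigel 21 passed, against 12 at 0.01 and 13 to 18 without single arrays. The counts over all genes without single arrays fell too, as given above for the members. After centring 1389 of all genes passed between the collagens. Members near background numbered 15, against 8 and 24 with the 90th and 99th percentile and 3 with vomeronasal receptor genes.

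Differences that changed sign were all far from the threshold. Timp4 between the collagens was at -0.014 after quantile normalization was applied again, -0.012 after centring, -0.0042 with array weights and, without single arrays, at -0.051 to 0.079. Timp4 in fibrillar collagen against Matrigel was at -0.0054 with array weights and at -0.053 to 0.076 without single arrays, and in non-fibrillar collagen against Matrigel at 0.025 and 0.034 after the 2 scalings. Between the collagens Mmp19 ran from -0.139 to 0.0855 and Adamts14 from -0.0725 to 0.0099 when single arrays were left out. The sign turned for Timp4 without fibrillar replicate 1, for Mmp19 without that array or non-fibrillar replicate 3, and for Adamts14 without fibrillar replicate 2 or non-fibrillar replicate 1.

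Over all genes, 42.4% of calls between the collagens were higher in fibrillar collagen, against 51.1% after quantile normalization was applied again and 30.3% after centring. The share was 37.9%, against 50.5% and 44.2%, in fibrillar collagen against Matrigel, and 48.8%, against 52.0% and 62.8%, in non-fibrillar collagen against Matrigel. Same-numbered arrays correlated at 0.253, 0.103 and 0.0968 between fibrillar collagen and Matrigel and at 0.125, 0.0449 and 0.135 between non-fibrillar collagen and Matrigel. Of these, 0.0968 and 0.0449 fell below the mark of 0.1, while 0.253 exceeded all values between the collagens (0.221, 0.143 and 0.242). Whether the numbers pair Matrigel arrays with collagen arrays therefore cannot be told from these values. With the block, Mmp13 passed in fibrillar collagen against Matrigel (adjusted p = 0.040), and Adamts9 and Adamts7 passed in non-fibrillar collagen against Matrigel (adjusted p = 0.024 and 0.0494); by the mean of its probe sets Adamts9 was at -0.087 there (adjusted p = 0.339). The cause of these shifts was not tested. With 3 arrays per group and no detection calls, precision is limited and genes near background cannot be placed.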
